A study of Mus musculus with 18 samples.

Results

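The 10 genes described here encode SR proteins and close relatives, the splicing factors that carry stretches rich in arginine and serine: Srsf1, Srsf2, Srsf3, Srsf5, Srsf6, Srsf7, Srsf10, Srsf11, Tra2a and Tra2b. They were chosen by gene symbol, and each symbol was found on exactly 1 locus of the deposited table, so the 10 genes are 10 of the 52179 loci with a symbol. None of the 10 loci carried the symbol of another gene, but some are wider than the gene annotated in GENCODE M21. The Srsf1 locus is chr11:88011990-88056406 against a gene at 88047373-88053755. The Srsf2 locus is chr11:116832570-116875635 against a gene at 116849901-116853094. Whether reads from outside the genes were counted was not tested. All 10 passed the filter on low values and were tested.

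SR proteins bind exonic sequences in pre-mRNA, recruit the spliceosome and help to carry spliced mRNA to the cytoplasm. Many of their own genes contain a poison exon, an exon that brings a stop codon into the reading frame, so that the mRNA that includes it is degraded in the cytoplasm by nonsense-mediated decay. Other transcripts of these genes keep an intron and are held in the nucleus. A gene of this family can therefore make a protein-coding mRNA and transcripts with another fate from the same locus, and the level of the locus adds them together.

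RNA was measured in Neuro2A cells, a mouse neuroblastoma line of wild-type genotype, by pulldown of a biotin-tagged miRNA mimic followed by RNA-seq. Cells were transfected with 25 nM biotinylated *miR-92b* or with 25 nM of a biotinylated scrambled sequence (Scr), or were left untransfected (control), and lysates were made after 48 h. Each of the 3 treatments was sequenced from nuclear lysate and from whole cell lysate, which also holds the nuclei, with 3 samples in each of the 6 groups. RNA held by streptavidin beads was selected with oligo-dT, and the sources used here do not say whether the control samples were also passed over beads. The labels do not say that samples of a group came from separate cultures, so p-values measure only the spread between these samples. As the cells were measured in bulk, more RNA of a gene in each cell and more cells holding that RNA cannot be told apart.

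The depth of a sample, counted over loci with a symbol, was 3752991 to 22920038 reads, and a single SR gene had 834 to 12209 reads in a sample. The sympathetic lineage markers with a tested locus (7 of the 8 listed, among them Hand2 and Mycn) had reads in every sample and a summed normalized count of 1766 to 2780, while markers of other cell types summed to 129 to 326, with 6 of the 10 below the filter. The nuclear RNAs Malat1 and Neat1 (joined with Gm27702) were higher in nuclear samples by 1.08 and 1.06 on the log2 scale (limma, adjusted p = 1.82e-05 and 4.50e-06), and all 4 cytoplasmic markers (Gapdh, Actb, Eef2 and Rplp0) were lower, with log2 fold changes from -3.67 to -2.15. The nuclear marker Miat had reads in only 2 of the 18 samples and was not tested, and Meg3, with a log2 fold change of 1.65, did not pass the test. Whole cell *miR-92b* sample 3 stood apart: it had reads on 14300 loci against 14928 to 21421 in the other samples, a summed cytoplasmic marker level of 88679 against 22627 to 49154 in the other whole cell samples, and a summed nuclear marker level of 30440.3 against 50718 to 79089.9. Compartment results in which this sample held the lowest value by a wide margin are given with and without it.

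The annotated transcripts were taken from GENCODE release M21 (GRCm38), which may differ from the annotation the authors used. Of the 10 genes, 9 had at least 1 transcript annotated for nonsense-mediated decay, against 29.0% of the 10589 tested loci that hold a single protein-coding gene. The same 9 genes also had a retained intron transcript (58.2% of those loci), and both kinds together occurred in 23.0% of them. The exception was Srsf10, which had neither. In 5 of the genes, Srsf3, Srsf7, Srsf11, Tra2a and Tra2b, a decay transcript contained an internal exon that overlaps no exon of a protein-coding transcript. This was so in 10.4% of the loci compared.

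These exons show how the frame is closed, and the coding part of each is printed from the exon's first base through the annotated stop codon, 5′ to 3′ on the strand of the gene, with the stop codon in capitals. The coordinates (GRCm38) are those of the printed bases.
Tra2b, chr16:22259181-22259261, minus strand: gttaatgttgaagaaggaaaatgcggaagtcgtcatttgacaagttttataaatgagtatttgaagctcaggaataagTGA
Tra2a, chr6:49252965-49253108, minus strand: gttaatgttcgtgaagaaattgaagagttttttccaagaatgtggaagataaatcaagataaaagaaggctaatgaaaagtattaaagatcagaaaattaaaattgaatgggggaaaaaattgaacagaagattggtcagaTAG
Srsf7, chr17:80205054-80205081, minus strand: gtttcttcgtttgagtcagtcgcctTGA
Srsf3, chr17:29039454-29039487, plus strand: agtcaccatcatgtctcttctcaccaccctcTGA
Srsf11, chr3:158023310-158023359, minus strand: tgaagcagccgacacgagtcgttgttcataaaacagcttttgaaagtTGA
Srsf11, second exon, chr3:158024209-158024231, minus strand: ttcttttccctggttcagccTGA

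The stop codon began at base 79 of the Tra2b exon and at base 142 of the Tra2a exon. In the other exons it came within the first 48 bases. The Tra2b exon was annotated with lengths of 276 and 397 bases and the Tra2a exon with 306 bases. TRA2 proteins are known to bind GAA-rich RNA, and the motif GAAGAA, counted on the strand of the gene with overlaps allowed, occurred 4 times in the Tra2a exon, 4 times in the longer and 3 times in the shorter Tra2b exon. It occurred once in the Srsf7 exon and not in those of Srsf3 and Srsf11. Of all annotated internal exons of 100 to 500 bases, 16.4% hold it.

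The comparison of nuclear with whole cell samples asked whether the normalized count of each SR gene differed between them. The counts are relative to each library, and whole cell lysate also holds the nuclei. They therefore do not give the share of a gene's RNA that was nuclear, and values given below as in the nucleus are those of nuclear samples. Averaged over the 3 treatments, 8 of the 10 genes were higher in nuclear samples and none was lower: Srsf7, Srsf2, Srsf11, Tra2b, Srsf5, Tra2a, Srsf6 and Srsf10, by 1.82-fold to 1.20-fold. Srsf1 and Srsf3 did not pass the test. Over all 15579 loci tested, 15.3% were called higher in nuclear samples. Calls were more frequent among well counted loci, and the SR genes had mean normalized counts of 1436 to 3481. Among the 1295 loci with a mean of at least 1000, 41.6% were called higher, which is the closer background for these genes. The median log2 fold change of the 10 genes was 0.54, against 0.14 for all loci and 0.17 for the well counted loci. In size, the largest of the 10 lay at the 78.8 percentile of the log2 fold changes of all loci. A call is an adjusted p below 0.05 in limma, two-sided, with all 18 samples in the same model, on the log2 of the normalized count plus 1, after Benjamini-Hochberg adjustment over all loci. The FPKM table, which divides the reads by transcript length, called 3 of the 10 genes higher (Srsf2, Srsf7 and Srsf11), against 8.92% of all loci on that scale. The FPKM share among well counted loci was not counted.

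**Figure D1:**
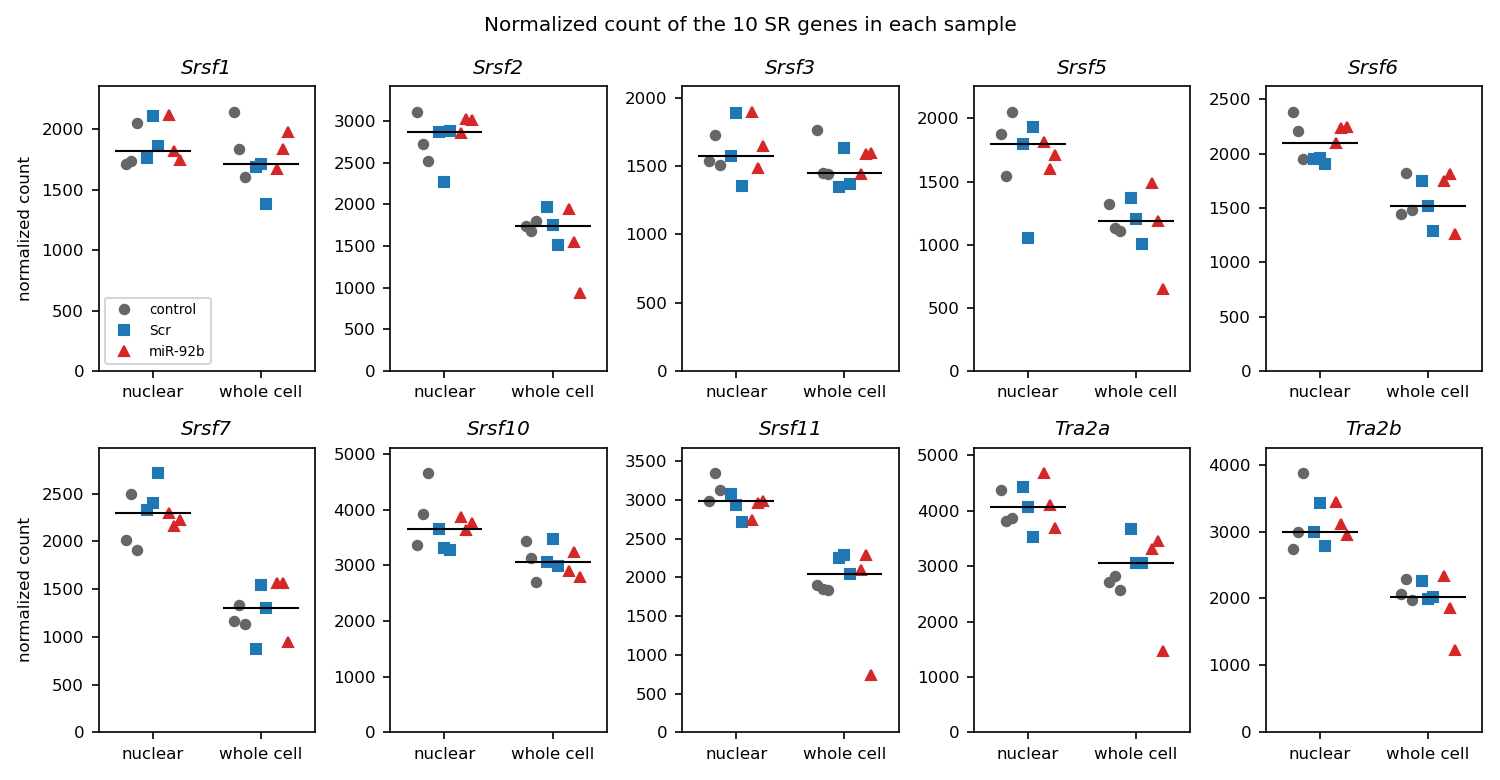
Normalized count (vertical axis, from 0) of each SR gene in the 9 nuclear and the 9 whole cell samples. Points are samples, their colour and shape give the treatment, and the line is the median of the 9 samples. For Srsf2, Srsf6, Srsf7, Srsf11 and Tra2b all nuclear points lie above all whole cell points, while those of Srsf1, Srsf3, Srsf5, Srsf10 and Tra2a overlap.

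Srsf1, Srsf3 and Srsf7 are SR proteins that work in export of mRNA, as adaptors for the export receptor Nxf1. Srsf7 had the largest difference of the 10 genes. Its normalized count (lowest, median and highest of 9 samples) was 1914, 2299 and 2711 in the nucleus against 878, 1299 and 1568 in whole cells, with a log2 fold change of 0.87 ± 0.12 (SE, limma, adjusted p = 6.85e-06). Every nuclear sample lay above every whole cell sample. Srsf1, the founding member of the family, ranged from 1709.8 to 2121 in nuclear samples (median 1821) and from 1384 to 2145 in whole cell samples (median 1716). Its log2 fold change was 0.10, with a 95% confidence interval from -0.10 to 0.30 and an adjusted p of 0.454. Srsf3, the smallest SR protein, ranged from 1356 to 1896 (median 1575) and from 1348 to 1764 (median 1449), with a log2 fold change of 0.10 and an interval from -0.10 to 0.30 (adjusted p = 0.460). For both genes the samples of the compartments overlapped, and the intervals end below that of Srsf7, which ran from 0.62 to 1.11.

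Srsf2, known as a component of nuclear speckles that does not shuttle to the cytoplasm, and Srsf11, a speckle protein of the SR-related group, were next in size. Srsf2 measured 2271, 2870.3 and 3109 (lowest, median, highest) in the nucleus against 939, 1745 and 1965 in whole cells, with a log2 fold change of 0.79 ± 0.12 (SE, limma, adjusted p = 1.72e-05). Srsf11 measured 2710.0, 2986 and 3339.8 against 739, 2039 and 2293, with a log2 fold change of 0.69 ± 0.15 (SE, adjusted p = 9.95e-04). The nuclear samples of both genes lay above all whole cell samples. The lowest whole cell value of each was that of *miR-92b* sample 3. Without this sample the log2 fold changes were 0.69 for Srsf2 (adjusted p = 6.38e-07) and 0.52 for Srsf11 (adjusted p = 3.12e-06), with 8 whole cell samples.

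Tra2a and Tra2b are the mammalian counterparts of the fly splicing regulator transformer-2 and carry arginine and serine rich stretches at both ends. Tra2b measured 2735, 2994 and 3868 in the nucleus against 1237, 2018 and 2337 in whole cells, with a log2 fold change of 0.66 ± 0.11 (SE, limma, adjusted p = 8.56e-05). Tra2a had the highest median normalized count of the 10 genes in nuclear samples, at 3531, 4065 and 4673 in the nucleus against 1474, 3055 and 3674 in whole cells, with a log2 fold change of 0.52 ± 0.13 (SE, adjusted p = 0.00391). The Tra2b samples separated completely. For Tra2a whole cell Scr sample 1 (3674) lay above nuclear Scr sample 3 (3531). Whole cell *miR-92b* sample 3 was again the lowest, and without it the log2 fold changes were 0.58 for Tra2b (adjusted p = 1.05e-05) and 0.39 for Tra2a (adjusted p = 4.42e-04).

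Srsf5 and Srsf6 are SR proteins with a pair of RNA recognition motifs, and Srsf10 is an unusual member that represses splicing when dephosphorylated. Srsf5 measured 1049.6, 1796 and 2052 in the nucleus against 652, 1191 and 1485 in whole cells (log2 fold change 0.56 ± 0.14, SE, limma, adjusted p = 0.00408). A single nuclear value, 1049.6 in Scr sample 2, fell among the whole cell values, and the other 8 nuclear values lay above all of them. Without whole cell *miR-92b* sample 3, the lowest value, the log2 fold change of Srsf5 was 0.45 (adjusted p = 0.00346). Srsf6 measured 1909, 2101 and 2384 against 1258, 1519 and 1819 (log2 fold change 0.43 ± 0.10, SE, adjusted p = 0.00190), with no overlap. Srsf10 had the smallest difference that passed, from 3266 to 4649.7 (median 3652) in nuclear samples against 2692 to 3473 (median 3062) in whole cells, with a log2 fold change of 0.27 ± 0.09 (SE, adjusted p = 0.0296). Its groups overlapped, and the call was lost with quantile normalization, in the FPKM table and when any 1 of 6 samples was left out. The 6 were nuclear Scr sample 1, nuclear *miR-92b* samples 1 and 3, nuclear control sample 3, and whole cell control and Scr sample 3. Without 1 of these samples the limma adjusted p lay between 0.0507 and 0.0710. The highest limma adjusted p among all the settings that lost the call was 0.751.

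In 5 of the 10 genes, Srsf2, Srsf6, Srsf7, Srsf11 and Tra2b, the 9 nuclear values all lay above the 9 whole cell values. This was so for 2.91% of all loci tested, and the share among loci with a mean of at least 1000 was not counted. The summed normalized count of the 10 genes was 24954 to 27806 in nuclear samples (median 26144, 0.422% to 0.478% of all reads) and 13605 to 20501 in whole cell samples (median 19723, 0.202% to 0.360% of all reads). The lowest sum was that of whole cell *miR-92b* sample 3, and the other 8 whole cell sums were at least 17645. Without this sample 8 genes were called, against 14.0% of all loci, with log2 fold changes between 0.25 (Srsf10) and 0.79 (Srsf7). The share among well counted loci without this sample was not counted.

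**Figure D2:**
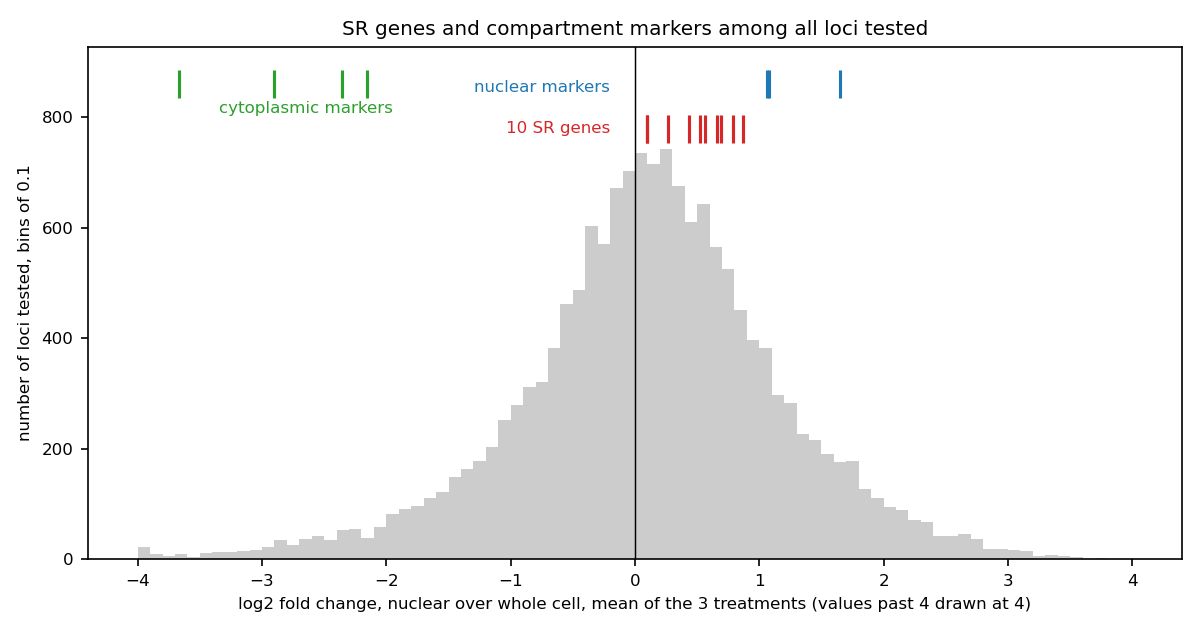
Histogram of the log2 fold change between nuclear and whole cell samples (horizontal axis, mean of the 3 treatments) for the 15579 loci tested (vertical axis, number of loci in bins of 0.1). Red marks are the 10 SR genes, blue marks the 3 tested nuclear markers and green marks the 4 cytoplasmic markers. The SR genes lie between 0.10 and 0.87, below the nuclear markers, which start at 1.06.

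Per transcript length, as FPKM, the genes can be ranked against each other. In nuclear samples the order of the median FPKM was Srsf2 (201.1), Srsf11 (137), Tra2a (127), Srsf10 (95.2), Srsf5 (91.8), Srsf1 (81.6), Srsf6 (74.4), Srsf3 (65.1), Srsf7 (59.1) and Tra2b (34.9). In whole cell samples it was Srsf2 (130), Srsf11 (101), Tra2a (97.8), Srsf10 (88.6), Srsf1 (81.1), Srsf3 (67.0), Srsf5 (66.5), Srsf6 (64.3), Srsf7 (39.73) and Tra2b (39.68). Srsf2 thus ranked highest in both compartments and Tra2b lowest in nuclear samples. In whole cell samples Tra2b was level with Srsf7, and by the mean their order was reversed (38.72 for Tra2b and 38.68 for Srsf7). The ranges of neighbours in this order overlapped except for Srsf7 and Tra2b in nuclear samples, where the lowest Srsf7 value (44.3) lay above the highest Tra2b value (42.1).

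Within each treatment alone, with 3 samples against 3, fewer genes passed. In control cells Srsf7 and Srsf2 were called higher in nuclear samples (2 of 10, against 2.94% of all loci), by 0.82 and 0.67 on the log2 scale (limma, adjusted p = 0.0124 and 0.0335). In Scr samples only Srsf7 was called (1 of 10, against 1.46% of all loci). Its normalized count was 2326, 2396 and 2711 in nuclear Scr against 878, 1540.2 and 1299 in whole cell Scr samples, with a log2 fold change of 1.03 ± 0.21 (SE, adjusted p = 0.00498). In *miR-92b* samples Srsf2, Srsf11, Tra2b, Srsf7 and Tra2a were called (5 of 10, against 6.66% of all loci), with log2 fold changes of 1.07, 0.92, 0.85, 0.75 and 0.69. Srsf2 measured 2856, 3025 and 3013 in nuclear and 1948, 1545 and 939 in whole cell *miR-92b* samples. The direction was the same in nearly all cases: all 10 genes had a higher fitted level in nuclear samples with Scr and with *miR-92b*, and 9 of 10 in control cells, where Srsf1 had a log2 fold change of -0.02. At an unadjusted p below 0.05 the numbers were 8 in control, 4 in Scr and 8 in *miR-92b* samples, against 22.7%, 22.1% and 28.6% of all loci in either direction. Shares among loci with a mean of at least 1000, the closer background, were not counted within treatments. How far these numbers exceed that background is therefore not known.

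These counts moved with the samples and the model. Without any 1 control sample, 0 or 1 gene passed in control cells, and without nuclear *miR-92b* sample 2 or 3, 2 passed in *miR-92b* samples. With only the groups compared in the model, 7 passed in control cells and 0 in *miR-92b* samples. Without whole cell *miR-92b* sample 3, which enters the shared estimate of the spread, 7 genes passed in control cells (against 6.55% of all loci), 4 in Scr samples (Srsf2, Srsf7, Srsf11 and Tra2b, against 4.88%) and 2 in *miR-92b* samples (against 2.85%). The 2 were Srsf2, with a log2 fold change of 0.77 (adjusted p = 0.00255), and Tra2b, with 0.60 (adjusted p = 0.0212). Shares among well counted loci were not counted for these fits either.

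**Figure D3:**
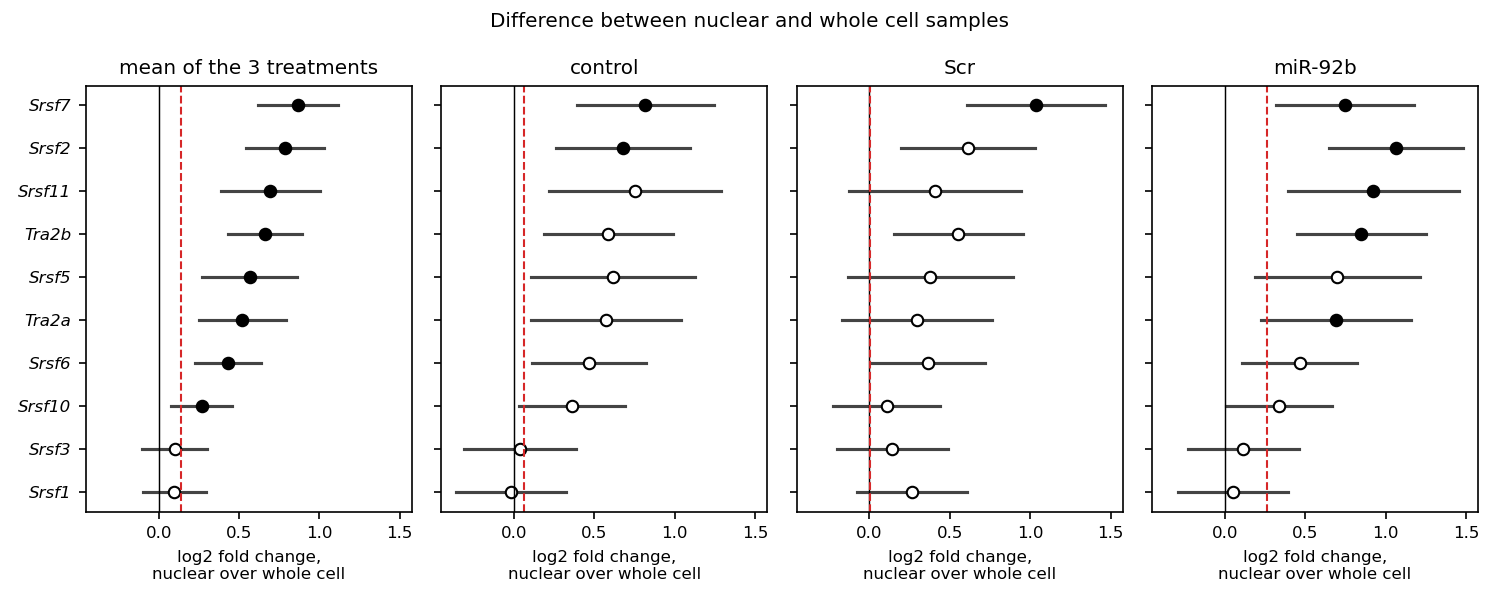
Log2 fold change of each SR gene, nuclear over whole cell samples (horizontal axis), averaged over the treatments and within each treatment. Filled points passed the test (adjusted p below 0.05), open points did not, bars are 95% confidence intervals and the dashed line is the median of all loci. Srsf7 is the gene that passed in all 4 panels, and Srsf1 and Srsf3 passed in none.

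Whether the compartment difference itself changed with the mimic was tested as a difference of differences. For *miR-92b* against Scr no SR gene passed, and of all loci 0.00642% did. The values ranged from -0.29 (Srsf7) to 0.52 (Srsf11, 95% confidence interval from -0.24 to 1.27), with the lowest adjusted p at 0.715. Without whole cell *miR-92b* sample 3 the value of Srsf11 was -0.0046, and the 10 values ranged from -0.53 (Srsf7) to 0.19 (Srsf10). For Scr against control no SR gene passed, and 0% of all loci did, with values from -0.35 (Srsf11) to 0.28 (Srsf1) and the lowest adjusted p at 0.896. No SR gene reached an unadjusted p below 0.05 in either test, while 1123 and 823 of all loci did, and edgeR and DESeq2 on the recovered reads also called none of the 10. The intervals, which reach from -0.89 to 1.27 and from -1.10 to 0.82 over the 10 genes, still allow a difference as large as the compartment difference itself. The larger number of genes called with *miR-92b* than with Scr is therefore not shown to be a difference between the treatments.

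The pulldown comparison asked whether SR transcripts were collected more with *miR-92b* than with Scr. The sequence of the miRNA (mmu-miR-92b-3p, RefSeq, GRCm38.p6, chr3:89227126-89227147, minus strand) is given with the seed, bases 2 to 8, in capitals. Of the 10 genes, 2 had a match to the seed in an annotated 3′ UTR, both of 7 bases including an A opposite the first base of the miRNA, against 15.3% of 10528 loci with an annotated 3′ UTR and a match of 7 or 8 bases. Each is shown with its flanking bases, the match in capitals, 5′ to 3′ on the strand of the gene, and its coordinates (GRCm38) are those of the match.
miR-92b-3p: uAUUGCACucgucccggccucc
Srsf6, chr2:162936102-162936108, plus strand: atcagaggacaTGCAATAaggcaaggctg
Tra2b, chr16:22245795-22245801, minus strand: ttagtgactgaTGCAATAttgttcttgct

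In both genes the match lay in 1 of the 2 protein-coding transcripts. In the nucleus Srsf6 measured 2101, 2236 and 2247 with *miR-92b* against 1949, 1958 and 1909 with Scr, with a log2 fold change of 0.18 ± 0.17 (SE). All 3 *miR-92b* values lay above the Scr values, but the difference was about as large as its error, and limma gave an adjusted p of 1. Srsf7, with no seed match, went the other way, with all 3 *miR-92b* values below the Scr values. How often 3 samples separate from 3 over all loci was not counted. Tra2b measured 3435, 3109.9 and 2944 against 2989, 3424 and 2789, a log2 fold change of 0.05 ± 0.19 (SE), and the groups overlapped. In whole cell samples the log2 fold changes were 0.08 ± 0.17 for Srsf6 and -0.25 ± 0.19 for Tra2b (SE, limma, adjusted p = 0.926 and 0.699). Without whole cell *miR-92b* sample 3 they were 0.24 for Srsf6 (adjusted p = 0.728) and -0.0010 for Tra2b (adjusted p = 1).

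None of the 10 genes passed the test between *miR-92b* and Scr in nuclear samples (0% of all loci did) or in whole cell samples (0.00642% of all loci). None did between Scr and control in nuclear samples (0% of all loci) or in whole cell samples (0% of all loci). No SR gene reached an unadjusted p below 0.05 in limma in any of these 4 comparisons, in which 687, 1515, 916 and 793 of all loci did, and edgeR and DESeq2 also called none of the 10. In nuclear samples the log2 fold changes of *miR-92b* over Scr lay between -0.15 and 0.18. The largest value was that of Srsf11 in whole cell samples, -0.52 ± 0.26 (SE, limma, adjusted p = 0.519), where *miR-92b* samples measured 2095, 2292 and 739 and Scr samples 2244, 2293 and 2039. Only sample 3 was low, and without it the log2 fold change of Srsf11 was 0.00.

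Dividing a locus's normalized count by its FPKM gives the transcript length that the authors' quantification assigned to the mix of transcripts, here relative to the median locus of the sample. It was compared for 6436 loci with at least 50 reads in every sample. Tra2b was the only SR gene called longer in nuclear samples, and 1 of 10 is near the share of all loci called, 11.2%. The relative length was 2.30, 2.68 and 4.33 in nuclear control, 3.01, 2.83 and 3.39 in nuclear Scr and 3.48, 2.29 and 2.23 in nuclear *miR-92b* samples. In whole cell samples it was 1.80, 1.75 and 1.74 in control, 1.42, 2.75 and 2.08 in Scr and 2.003, 2.33 and 1.28 in *miR-92b* samples. Nuclear values were mostly higher, and within control and within Scr the compartments did not overlap, while the *miR-92b* samples overlapped. The difference was 1.55-fold, or 0.63 ± 0.16 on the log2 scale (SE, limma, adjusted p = 0.0165). For the other 9 genes the log2 difference lay between -0.07 and 0.10, with adjusted p-values of at least 0.272.

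**Figure D4:**
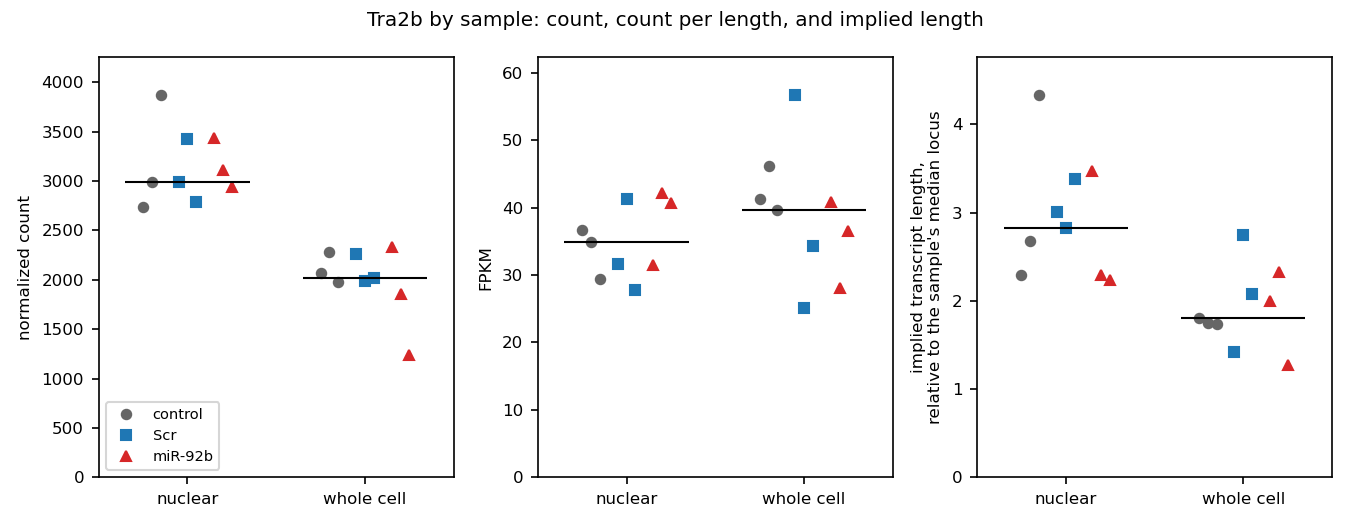
Tra2b in each sample as normalized count, as FPKM and as implied transcript length relative to the median locus (vertical axes, from 0), for nuclear and whole cell samples. Points are samples by treatment and lines are medians of 9. The nuclear median is higher for the count (2994 against 2018) and the length (2.83 against 1.80) but not for FPKM (34.9 against 39.7).

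Per length, the Tra2b values of the compartments overlapped. Its FPKM ranged from 27.7 to 42.1 in nuclear samples and from 25.1 to 56.6 in whole cell samples, with a difference in log2 of -0.12 (limma, adjusted p = 0.599), against 0.66 for the normalized count. Without centring on the sample median, 5 genes were called longer in nuclear samples, Tra2b with Srsf2, Srsf6, Srsf7 and Tra2a, against 23.2% of all loci. Of the annotated Tra2b transcripts, the protein-coding ones are 1369 and 3403 bases long, the longest decay transcript has 1687 bases and the longest retained intron transcript has 4112 bases. The Tra2b locus also reaches past the 3′ end of the annotated gene, to base 22238831 of chr16 against 22244549. The values are for the locus, and which transcripts the reads came from was not tested.

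**Figure D5:**
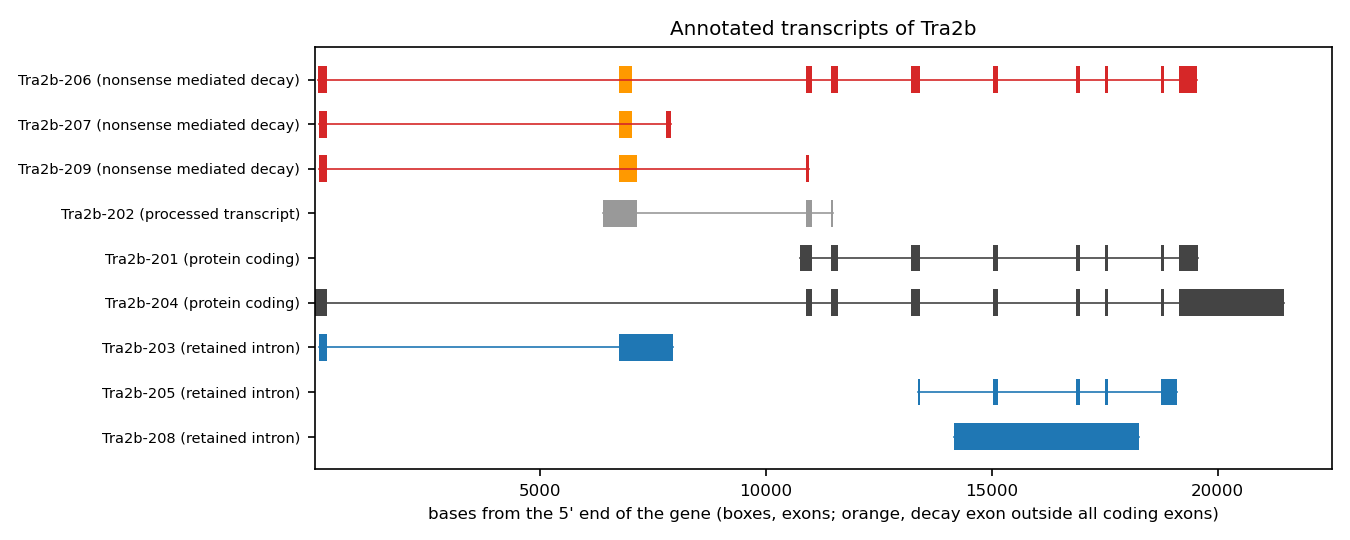
The 9 annotated transcripts of Tra2b (GENCODE M21), drawn from the 5′ end of the gene (horizontal axis, bases), with boxes for exons and lines for introns. Red transcripts are annotated for nonsense-mediated decay, blue ones retain an intron, dark grey ones code for protein and the light grey one is a processed transcript. The orange exon, which begins at base 6745, lies in the 3 decay transcripts and outside all exons of the coding transcripts.

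Over the 18 samples the genes varied together to different degrees. The Pearson r of a gene's log2 level with the mean of the other 9 was 0.19 for Srsf1 and 0.25 for Srsf3, and 0.75 (Srsf10) to 0.94 (Srsf2) for the other 8. The r with Malat1 was 0.08 for Srsf1, 0.22 for Srsf3 and 0.71 to 0.93 for the others. These are descriptions over samples that share their library and the difference between compartments. Of 7302 other loci with a single symbol and a mean of at least 100, those most like the mean of the 10 genes were Phf20l1 (r = 0.976), Ogt (0.971), Srek1 (0.970), Rims2 (0.966) and Myef2 (0.965). All 5 were higher in nuclear samples, with log2 fold changes from 0.55 (Ogt) to 0.88 (Phf20l1). This direction follows from the way they were picked, as the mean of the 10 genes was itself higher in nuclear samples.

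The other genes of the SR pathway were described by lists. Of 15 further SR and SR-related loci tested (of 16 listed), 8 were higher in nuclear samples and none was lower, with a median log2 fold change of 0.37. The shares for all loci were 15.3% higher and 15.8% lower, and for the loci with a mean of at least 1000 they were 41.6% and 23.3%. Those with the highest counts were Luc7l2, of the U1 snRNP, at 0.58 (limma, adjusted p = 0.00122), Son, a scaffold of nuclear speckles, at 0.55 (adjusted p = 7.98e-04), the locus that joins Srrm2 with D930048G16Rik and Mir5125, at 0.03 (adjusted p = 0.844), and Rbm39 at 0.52 (adjusted p = 1.69e-04). Of 9 kinases and transport factors tested (of 10), 4 were higher and none was lower, with a median of 0.32. Srpk1, which phosphorylates SR proteins in the cytoplasm, had a log2 fold change of 0.29 (adjusted p = 0.0614). The nuclear SR kinase Clk4, joined with Gm25082, was higher by 0.56 (adjusted p = 1.97e-04), the export receptor Nxf1 by 0.53 (adjusted p = 0.00213) and the kinase Prpf4b by 0.62 (adjusted p = 5.00e-04).

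The hnRNP genes, whose proteins often act against SR proteins on the same exons, were called in both directions, as loci in general were. Over all loci the shares were 15.3% higher and 15.8% lower, and with a mean of at least 1000 they were 41.6% and 23.3%. Of the 20 hnRNP loci tested, 8 were higher and 6 lower in nuclear samples, with a median of 0.16. Of the most counted, Ptbp2, joined with Gm42664 and Gm43300, was higher by 0.95 (limma, adjusted p = 4.22e-06), Hnrnpu, joined with B230369F24Rik, by 0.49 (adjusted p = 5.66e-04) and Hnrnph1 by 0.74 (adjusted p = 9.45e-06). Hnrnpa1 had a log2 fold change of -0.66 (adjusted p = 1.17e-04). The 10 factors of nonsense-mediated decay had a median of -0.21. Smg6, the endonuclease of the pathway, was higher by 0.62 (adjusted p = 0.00230), and Smg1 (0.14) and Smg5 (-0.19) did not pass. Without whole cell *miR-92b* sample 3, 8 SR-related, 4 kinase and transport and 7 hnRNP loci were called higher, and 1, 0 and 6 were called lower.

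Transcripts of the decay and retained intron kinds are common outside the family too. Of the 2433 tested loci of a single protein-coding gene with both kinds annotated, 14.1% were called higher in nuclear samples. Their median log2 fold change was 0.01. The 4366 loci with 1 kind had 11.7% and -0.09, and the 3790 loci with neither had 10.3% and -0.05. These shares were not matched for count. Of the 9 SR genes with both kinds, 7 were called higher. The closer background for them is the 41.6% among loci with a mean of at least 1000. Srsf10, with neither, was also called, and Srsf1 and Srsf3, with both, were not.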

How the data were processed

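The processing notes of the authors name Trimmomatic 0.30 for trimming, TopHat2 for alignment and Cufflinks for loci and their quantification, on GRCm38 (mm10). For TopHat2 and Cufflinks no version, and no annotation release, was given in the sources used here. The libraries came from a directional kit. The deposited normalized counts are a signal, scaled from reads by a size factor for each sample. The deposited FPKM values divide the reads by transcript length and by the mapped reads. The deposited comparison tables hold the authors' group FPKM, log2 fold changes, p-values and q-values and were not used. Of 635205 normalized counts above 0, 99.95% were whole multiples of 1 read within 0.02 reads, so that reads were recovered for edgeR and DESeq2. Between 4.51% and 15.3% of reads fell on loci with no symbol, which were left out.

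The genes, lists and tests were chosen with earlier results of these data known. All 10 genes were named, with up to 4 genes of each list, those with the highest mean count, and the 5 loci most alike. One result of the decay factor list is not reported here. limma 3.58.1 (R 4.3.3) with a variance trend was fitted to log2(normalized count + 1) of 15579 loci with a symbol and a mean of at least 10. On this scale the fold change of a low locus is understated. The implied length was tested by limma without the trend. Seed matches were of 7 or 8 bases. The design had allowed for raw counts, and limma was used because the values are normalized. Alternatives were the pseudocounts 0.5 and 8, filters at a mean of 1 or 50 and none, FPKM values (pseudocount 0.1), other scalings, sample weights, a replicate block, edgeR 4.0.16, DESeq2 1.42.0 and each sample left out.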

Additional observations from a re-analysis of the deposited data

How the results depend on the processing

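The number of SR genes called higher in nuclear samples, 8 of 10 over the 3 treatments, stayed at 7 or 8 under every alternative run except the FPKM table, which called 3, and when each sample was left out it was 7 to 8. Within single treatments the counts moved. In control cells, 2 in the report, the count was 4 with a pseudocount of 8, 1 without a filter, 0 in the FPKM table, 5 with samples rescaled to the same median, 1 with quantile normalization, 7 with only the groups compared, 8 with sample weights, 7 with DESeq2, and 0 to 7 when each sample was left out. In Scr samples, 1 in the report, it was 2 with sample weights, 3 with DESeq2 and 1 to 4 when each sample was left out. In *miR-92b* samples, 5 in the report, it was 3 without a filter, 1 in the FPKM table, 0 with only the groups compared and 2 to 7 when each sample was left out. Leaving out any control sample gave 0 or 1 in control cells. Leaving out whole cell *miR-92b* sample 3 gave 7 in control, 4 in Scr and 2 in *miR-92b* samples, whole cell *miR-92b* sample 1 gave 2 in Scr samples, and nuclear *miR-92b* samples 1, 2 and 3 gave 3, 2 and 2 in *miR-92b* samples. The comparisons of the mimics and of the differences called none of the 10 under any alternative. The implied length, 1 gene in the report, gave 5 without centring and 1 when each sample was left out.

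Of 300 values of single genes under the alternatives, 286 kept their direction and their side of the threshold, 11 lost the call (8 of them of Srsf10) and 3 reversed, all in the FPKM table: Srsf1 (-0.025), Srsf3 (-0.13) and Tra2b (-0.12). The normalized counts and the FPKM values also differ in scale: the median log2 fold change of all loci was 0.14 and 0.02, and 49.2% against 35.6% of the calls were higher in nuclear samples. It was 0.23 (57.7%) with samples rescaled to the same median. The implied length without centring is, by construction, the gap between the fold changes of the count and the FPKM for each gene, and the cause of that gap was not tested. Srsf1 and Srsf3 lay below the median of all loci in the report. Samples with the same replicate number shared little variation (r of 21 same-numbered pairs from -0.04 to 0.11), which cannot show whether they were prepared together. With the replicate block the counts were 8 over all treatments, 2 in control, 1 in Scr and 6 in *miR-92b* samples. The SR genes had at least 834 reads in every sample, and the effect of depth on the calls was not tested. The lists without whole cell *miR-92b* sample 3 were chosen after seeing the data. DESeq2 gave no adjusted p for 18 loci, or 4233 in control cells, none of them SR genes. A model of only the groups compared is the same as that of the report for the mean of the treatments.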
